A study of Mus musculus with 22 samples.

Results

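Short gaps between lamina-associated domains (LADs) were followed in mouse embryonic fibroblasts (MEFs): the stretches of 25 to 250 kb that separated neighbouring LADs in wild-type (WT) cells. They were chosen by the 3 WT LAD lists themselves. In each WT list, on chromosomes 1 to 19, called intervals under 25 kb apart were joined, LADs over 100 kb were kept, and gaps of 25 to 250 kb between neighbouring LADs were taken. Bases that lay in such a gap in at least 2 of the 3 WT lists were retained, in segments of 25 kb or longer. This gave 970 gap segments, 85.1 Mb in all, of 1974 WT gap segments of any length from 25 kb upward (969 Mb). Because the WT lists chose the segments, their state in WT is given as a description and no test was run on it.

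The data were 22 sequenced DamID samples of primary MEFs from C57bl/6 embryos at e13.5, and they form 11 pairs of a Dam-lamin B1 library and a Dam-only library, with 1 LAD list per pair. WT cells were untreated and carried no control hairpin; their lists came from embryos 1.5, 1.8 and x17. In shAC cells, lamin A and lamin C were knocked down with an shLaminA/C virus and puromycin selection, the Dam viruses were added 4 days after infection, and cells were collected 48 h later (embryos 1.5 and x17). For the drugs, MEFs received BIX01294, DZNep or TSA for 18 to 24 h before the Dam virus and were harvested at 60 h (embryos 1.8 and x17 for each drug). No drug dose is given in the labels, nor the step at which the 60 h began. All groups carried the Dam viruses, and a treated list shares its embryo with a WT list, and lists of different treatments often share an embryo (x17 in all 4 treatments, 1.8 in the 3 drugs).

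LADs are long stretches of mostly silent chromatin that touch the lamina at the inner face of the nuclear envelope, and the stretches between them tend to hold active genes. DamID reads these contacts through an adenine methyltransferase of bacterial origin, Dam, which leaves its mark on the DNA near the lamina when it is tied to lamin B1, while Dam on its own serves as the measure of accessibility. BIX01294 inhibits the histone methyltransferase G9a, which deposits H3K9 methylation, DZNep lowers H3K27 methylation by EZH2, and TSA inhibits histone deacetylases; H3K9 and H3K27 methylation and low acetylation are marks typical of LADs and their borders.

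The segments had a median length of 66.5 kb, with quartiles at 37.5 kb and 124 kb. By length, 370 measured 25 to 50 kb, 276 measured 50 to 100 kb and 324 measured 100 to 250 kb. All coordinates are mm9, the build named in the submitters' processing notes. The shortest segment, of 25.01 kb, lay at chr15:91438947-91463956. A segment of 24.8 kb at chr14:40186015-40210860 was the longest of the 51 that fell below the length limit. At the other end, the longest segment, of 247.6 kb, lay at chr13:75841534-76089174, and the next gap outside the limit, of 250.6 kb, at chr9:87602476-87853026. Each chromosome held between 24 (chromosome 19) and 80 (chromosome 1) segments. Per 10 Mb of chromosome, segments were densest on chromosome 9, with 5.04, and sparsest on chromosome 14, with 2.70. No gene annotation of this build was used here, so the segments are given by position alone.

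In every list, a segment was called filled when all of its bases lay in a kept LAD, open when none did, and narrowed otherwise. Filled segments made up 8.87% of the 970 in WT embryo 1.5, 9.18% in WT embryo 1.8 and 10.9% in WT embryo x17. In shAC they made up 18.5% (embryo 1.5) and 17.01% (embryo x17). In BIX01294 they made up 18.7% (embryo 1.8) and 23.0% (embryo x17). These 4 lists had the highest shares, and both BIX01294 lists lay above both shAC lists. In DZNep the share was 12.7% (embryo 1.8) and 15.3% (embryo x17), and in TSA it was 11.96% (embryo 1.8) and 10.52% (embryo x17). The DZNep and TSA lists did not overlap each other, and TSA embryo x17 lay below WT embryo x17.

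Open segments were most frequent after TSA and least frequent after BIX01294. They made up 52.9% (embryo 1.8) and 56.9% (embryo x17) of all segments in TSA, and 29.7% and 23.5% in BIX01294. In DZNep 37.9% (embryo 1.8) and 36.0% (embryo x17) were open, and in shAC 38.1% (embryo 1.5) and 48.2% (embryo x17). In the WT lists, which had chosen the segments as gaps, 68.0% (embryo 1.5), 62.5% (embryo 1.8) and 62.1% (embryo x17) were open. The rest were narrowed, from 32.6% in TSA embryo x17 to 53.5% in BIX01294 embryo x17 among the treated lists and from 23.1% to 28.4% among the WT lists. These shares depended on small encroachments: with open set at no more than 10% of bases covered and filled at 90% or more, 59.4% of segments were open in DZNep and 47.2% in BIX01294, where 37.0% and 26.6% were under the strict definition. With gaps in all 3 WT lists, 65.3% were open in shAC, 46.8% in BIX01294, 58.8% in DZNep and 68.0% in TSA. Among the treated lists, the open share was highest where total LAD length was shortest (TSA embryo x17, 1302 Mb). It was lowest where total length was longest (BIX01294 embryo x17, 1536 Mb), and the part of total length was not tested.

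**Figure D1:**
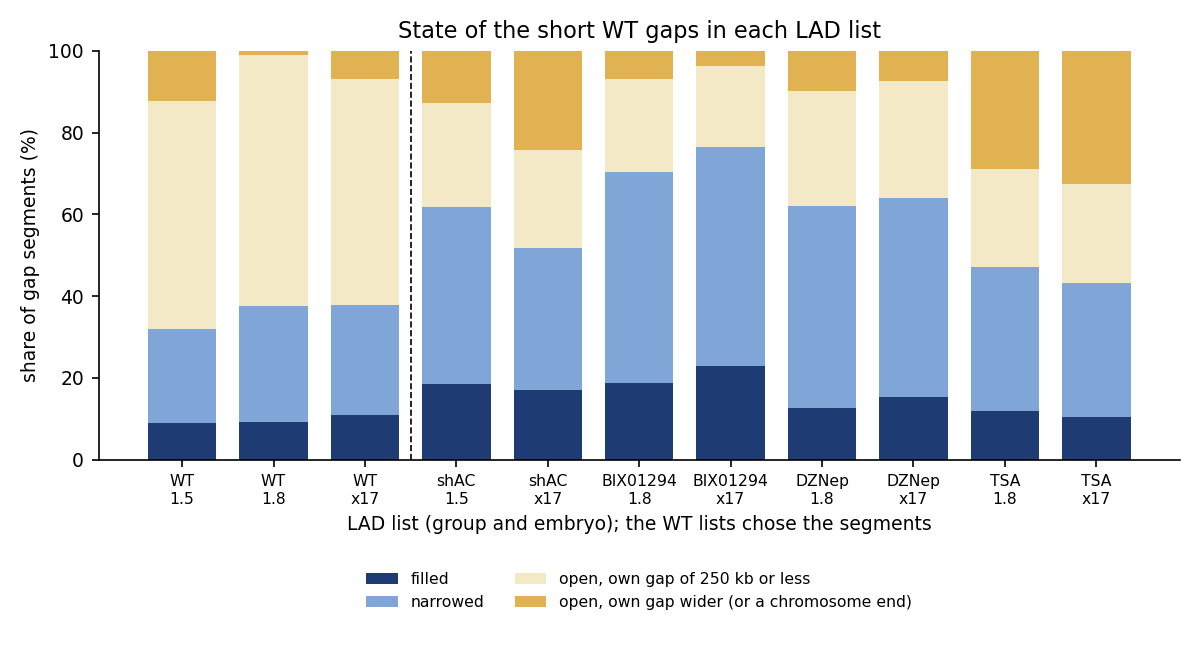
Share of the 970 short WT gaps (y axis, %) that was filled, narrowed or open in each of the 11 LAD lists (x axis, group and embryo), as stacked bars, with open segments divided by whether the list's own gap around them was at most 250 kb or wider. Filled shares are highest in the 2 BIX01294 lists (18.7% and 23.0%), and open segments in widened gaps are most frequent in the 2 TSA lists; the WT lists left of the dashed line chose the segments.

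The treatments were compared with each other, since none of their lists had a part in choosing the segments. The mean filled share was 20.8% ± 3.06 in BIX01294, 17.7% ± 1.02 in shAC, 13.97% ± 1.82 in DZNep and 11.2% ± 1.02 in TSA (SD, n = 2 lists each). BIX01294 exceeded the other 6 treated lists by 6.51 points, and both of its lists lay above all 6 (two-sided exact permutation test over 28 choices of 2 lists, p = 0.0357, the smallest p this design can give). Adjusted over the 4 treatments by the Benjamini-Hochberg method, this p became 0.143 and did not pass 0.05, and with the replicate number as a block it was 0.0625 (exact permutation, the smallest p of that fit). The block sets shAC embryo 1.5 beside the drug lists of embryo 1.8, which are different animals. Without adjustment, the BIX01294 contrast also did not pass under most other alternatives tried. TSA differed from the other 6 lists by -6.27 points (exact permutation p = 0.107, adjusted 0.214), with both of its lists below all 6. That call depended on single lists. Without BIX01294 embryo x17, DZNep embryo 1.8 or DZNep embryo x17 the difference was -5.18, -7.24 and -6.72 points, and each newly passed without adjustment. The shAC lists exceeded the others by 2.39 points (exact permutation p = 0.536, adjusted 0.536), and the DZNep lists differed from them by -2.63 points (exact permutation p = 0.429, adjusted 0.536), so neither was separated from the rest. The means of the 4 treatments had an SD of 4.21 points, the largest of all ways to form 4 pairs from the 8 lists (one-sided exact permutation, p = 0.00952, the smallest this design can give).

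The test of that spread did not pass without some single lists, nor under several settings. Without WT embryo 1.8 in the choice of segments it was 3.89 points (exact permutation p = 0.0857) and without WT embryo x17 it was 3.52 points (p = 0.105, exact permutation), while without shAC embryo 1.5, TSA embryo 1.8 or TSA embryo x17 it was 4.12, 4.48 and 3.94 points (exact permutation p of 0.0667, 0.0571 and 0.0762). When the treated lists were read as deposited, without the joining and the length filter, it was 1.32 points (exact permutation p = 0.105). The filled shares were then 7.16% in BIX01294, 6.86% in shAC, 4.33% in DZNep and 6.80% in TSA. BIX01294 then exceeded the other lists by 1.17 points, and the TSA difference changed sign, to 0.687 points (exact permutation p = 0.821). The spread also did not pass with joining under 50 kb (5.24 points, exact permutation p = 0.152), gaps in all 3 WT lists (2.40 points, p = 0.171) or segments of 50 kb or longer (2.10 points, p = 0.0571). Without WT embryo 1.5 in the choice of segments, the filled share was 14.5% in BIX01294, 11.6% in shAC, 8.62% in DZNep and 7.64% in TSA. In the main analysis, lists with a longer total LAD length had more segments filled: total length ranged from 1302 Mb (TSA embryo x17) to 1536 Mb (BIX01294 embryo x17), and across the 8 lists, which share embryos, Pearson's r was 0.75 (two-sided exact permutation p = 0.0318) and Spearman's rho was 0.74 (exact permutation p = 0.0458). Without the TSA and BIX01294 lists of embryo x17, r was 0.33, so the relation rests on those lists. Leaving out WT embryo x17, either BIX01294 list or either TSA list gave r of 0.54, 0.73, 0.58, 0.72 and 0.64 (exact permutation p of 0.165, 0.0577, 0.159, 0.0651 and 0.112), and the part of total length in the treatment differences was not tested. With joining under 50 kb r was 0.93 (exact permutation p = 2.48e-05, the smallest it can give). With the lists as deposited r changed sign, to -0.15 (exact permutation p = 0.735), and it did not pass with LADs over 200 kb (p = 0.0903), gaps in all 3 WT lists (p = 0.0639) or segments of 50 kb or longer (p = 0.0515, all exact permutation).

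Requiring the same state in both lists of a treatment reduced the counts. In shAC, 100 of the 970 segments (10.3%) were filled in both lists and 253 (26.1%) were open in both; of all 1974 WT gap segments, among which the short gaps are included, 6.13% were filled in both and 21% open in both. In BIX01294, 10.8% of segments were filled in both lists and 103 (10.6%) were open in both, against 7.19% and 5.22% of all WT gap segments. In DZNep, 53 segments (5.46%) were filled and 188 (19.4%) open in both lists, against 3.7% and 9.63%. In TSA, 45 segments (4.64%) were filled and 359 (37.0%) open in both lists, against 3.09% and 27.3%. TSA thus had the most segments open in both lists and BIX01294 the fewest. Between the 2 lists of a treatment, the segments filled in both made up 41.0% of those filled in either for shAC and a mean of 31.6% ± 7.85 over the 4 treatments (SD). Pairs of lists from the same embryo under different treatments shared 26.2% ± 7.03 (9 pairs), and pairs with neither in common 22.9% ± 6.25 (15 pairs); these pairs share lists and their ranges overlap.

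The level in untreated cells was read from a WT list that had no part in the choice. For this, gap segments were built again from 2 WT lists and read in the third. The held-out WT list filled 13.01% of 661 segments (embryo 1.5), 16.5% of 538 segments (embryo 1.8) and 17.1% of 620 segments (embryo x17), each a higher share than the same list filled among the 970 segments it had helped to choose. Against these levels the treated lists did not stand above WT in general. BIX01294 filled 17.7% of the segments where WT embryo 1.8 filled 16.5%, and 18.7% where WT embryo x17 filled 17.1%. In shAC 13.46% were filled against 13.01% in WT embryo 1.5, and 16.1% against 17.1% in WT embryo x17. The filled shares of BIX01294 and shAC therefore lay within 2 points of WT of the same embryo. DZNep filled 13.01% and 13.06% of segments against 16.5% (embryo 1.8) and 17.1% (embryo x17) in WT. TSA filled 11.2% and 9.19% against the same WT levels. Over all 3 sets of segments, which overlap, DZNep and TSA lay below the held-out WT list in 6 of 6 readings each, shAC in 5 of 6, and BIX01294 above it in 5 of 6. With 1 held-out list per set, these differences have no replicate check and no test was run. They depended on the setting: with the lists read as deposited, TSA filled 0.521 points more than WT of the same embryo in the mean, and with joining under 50 kb the difference for BIX01294 was -0.634 points.

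Open segments were also read against the held-out WT lists. In TSA, 53.0% of segments were open where WT embryo 1.8 had 32.5%, and 62.1% where WT embryo x17 had 41.3%. In BIX01294, 29.7% were open against 32.5% (embryo 1.8) and 32.1% against 41.3% (embryo x17). In DZNep, 37.5% and 46.6% were open against the same WT levels. TSA was above the held-out WT list in 6 of 6 readings, by 5.60 to 32.9 points, and BIX01294 below it in 6 of 6, by between -2.42 and -18.0 points. DZNep was above it in 4 of 6 readings and shAC in 5 of 6. Against WT of the same embryo the shAC lists went in opposite directions, with 51.1% open against 54.2% in WT embryo 1.5 and 54.0% against 41.3% in WT embryo x17. The held-out lists themselves differed in total LAD length, from 1377 Mb (WT embryo 1.5) to 1507 Mb (WT embryo 1.8). The part of total length in these differences was not tested.

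**Figure D2:**
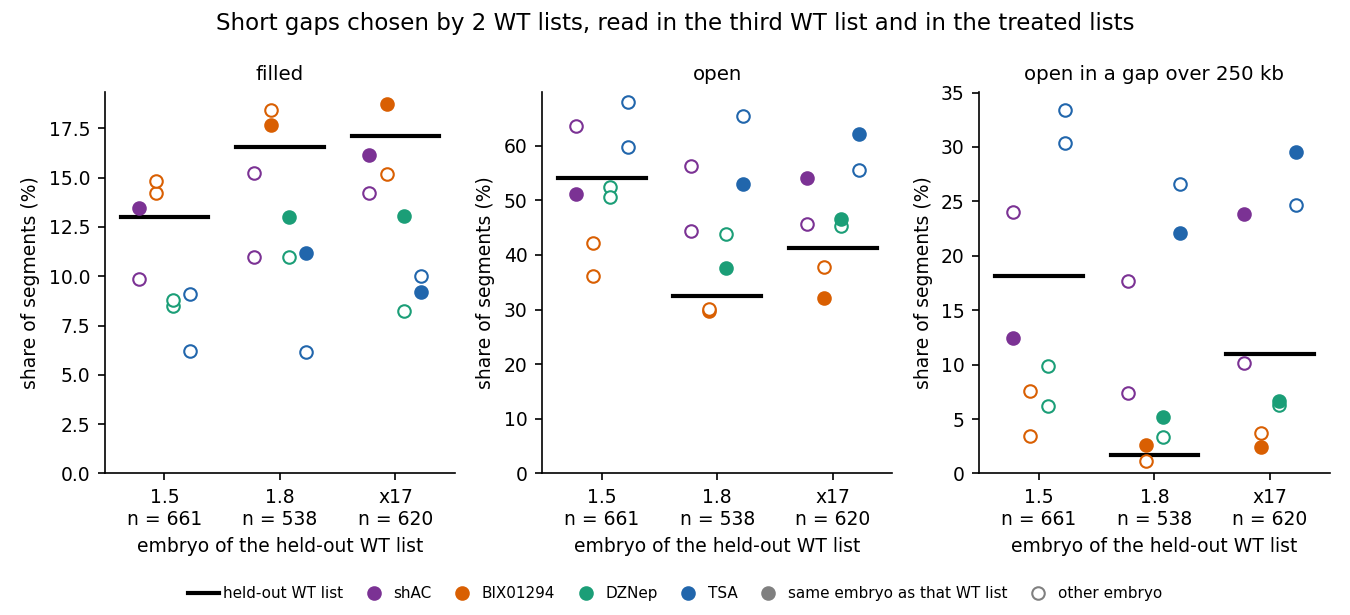
Share of gap segments (y axes, %) that were filled, open, or open within a gap of over 250 kb, for segments chosen by 2 WT lists and read in the third (black line, by its embryo on the x axis) and in the 8 treated lists (points; solid for the same embryo as that WT list). TSA points lie below the WT line for filled segments and above it for both measures of open segments in all 3 sets.

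Where a segment was open, the LADs beside it were often no longer called up to the former edge, most of all after TSA. Of the open segments in TSA, 54.6% (embryo 1.8) and 57.1% (embryo x17) lay in a gap that had widened beyond 250 kb in that list or reached a chromosome end. In shAC this share was 33.8% (embryo 1.5) and 50.2% (embryo x17), in DZNep 26.1% (embryo 1.8) and 20.6% (embryo x17), and in BIX01294 23.6% and 15.4%. The TSA lists lay above all other treated lists, although shAC embryo x17 came close. The median gap around an open segment measured 289 kb ± 13.1 in TSA, 219 kb ± 45.3 in shAC, 159 kb ± 10.3 in DZNep and 145 kb ± 15.9 in BIX01294 (SD, n = 2 lists each). Among segments chosen without it, WT embryo 1.8 held 1.67% open in a widened gap where TSA of that embryo held 22.1%, and WT embryo x17 held 10.97% where TSA held 29.5%. The corresponding values were 2.60% and 2.42% in BIX01294 and 5.204% and 6.61% in DZNep, and shAC held 12.4% against 18.2% in WT embryo 1.5 and 23.9% against 10.97% in WT embryo x17. Only TSA lay above the held-out WT list in 6 of 6 readings. The measure of widening was added after these values had been seen, and no test was run on it, nor on the part of total LAD length in it.

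Narrowed segments were mostly covered from 1 side only. Among the treated lists, the share narrowed from a single edge ranged from 67.8% in BIX01294 embryo x17 to 88.0% in TSA embryo x17, and the share narrowed from both edges from 11.7% to 31.6% in the same lists. At most 3 narrowed segments per list were covered at neither edge. Narrowing was shallow. The LAD sequence that entered a narrowed segment had a median of 12.3 kb ± 1.53 in BIX01294, 8.94 kb ± 1.56 in TSA, 8.69 kb ± 0.605 in DZNep and 8.61 kb ± 1.24 in shAC (SD, n = 2 lists each). Narrowing in the WT lists, which chose the segments, was alike: a median of 9.335 kb ± 1.81, with 82.0% ± 6.19 from a single edge (SD, n = 3 lists).

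A short gap holds more of its bases near an edge than a long one, so LAD cover was compared in 4 bands at equal distance from the nearest gap edge (limits with the processing steps), with 582 WT gap segments of 250 to 1000 kb (278 Mb) made by the same rule. In the band nearest the edge, LADs of the treated lists covered 31.4% ± 7.40 of the short-gap bases and 25.4% ± 7.80 of the wider-gap bases (SD, n = 8 lists). The difference was 6.03 points, higher in the short gaps in 8 of 8 lists (two-sided exact sign-flip permutation over the 8 lists, p = 0.00781, the smallest it can give; 0.0104 adjusted over 4 distances). In the next band, up to 25 kb, the short gaps had 20.4% and the wider gaps 16.5%, a difference of 3.98 points in 8 of 8 lists with the same exact permutation p. From 25 to 50 kb the difference was 1.85 points, in 6 of 8 lists (exact permutation p = 0.0312, adjusted 0.0312). In the farthest band, beyond 50 kb, it was 2.66 points, in 8 of 8 lists (exact permutation p = 0.00781, adjusted 0.0104). Cover of the short gaps thus exceeded that of wider gaps at every distance tested. The bands count the nearest edge only. In a short gap the LAD on the other side is near as well, and joining closes a remainder under 25 kb. Both favour higher cover in short gaps by construction, so the tests cannot tell this from a property of the short gaps. The WT lists were not read in these bands. These tests take each list as a unit although lists share embryos and treatments. Over the 4 treatment means the differences were above 0 in 4 of 4 treatments, except from 25 to 50 kb (3 of 4, with -0.26 points in TSA), and no p below 0.125 was possible (exact sign-flip permutation p = 0.25 from 25 to 50 kb and 0.125 in the other bands). With lists as units, the differences within 25 kb of an edge passed under every other alternative tried, whereas that from 25 to 50 kb did not without any single shAC, BIX01294 or DZNep list (1.39 to 1.94 points, exact permutation p = 0.0625 in each case), nor with LADs over 200 kb (0.467 points, exact permutation p = 0.555), with the lists as deposited (1.06 points, p = 0.156) or with gaps in all 3 WT lists (0.910 points, p = 0.0938). That beyond 50 kb did not pass without WT embryo x17 in the choice of segments (1.38 points, exact permutation p = 0.0859) with joining under 50 kb (0.145 points, exact permutation p = 0.828) or with gaps in all 3 WT lists (1.03 points, p = 0.141).

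**Figure D3:**
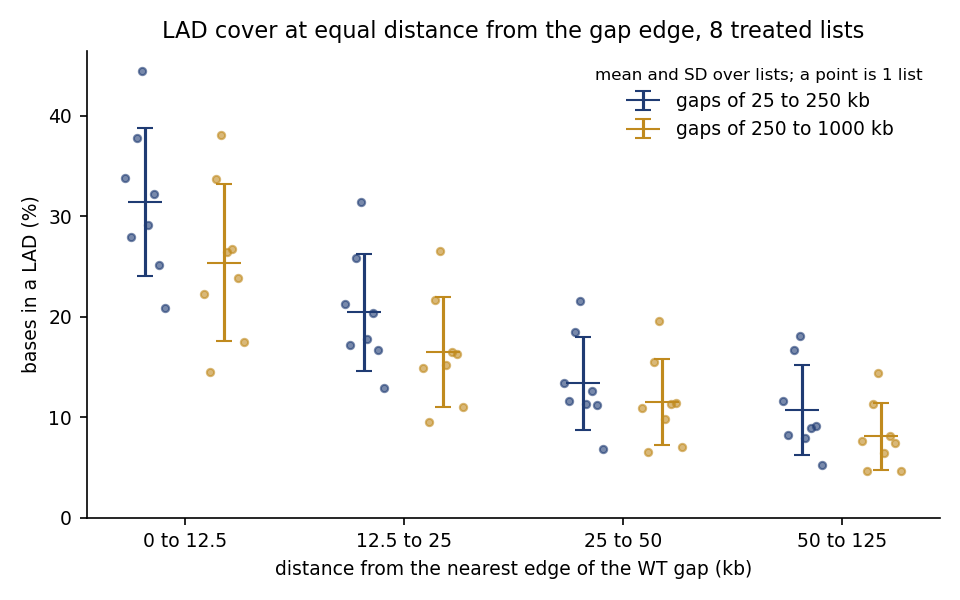
LAD cover (y axis, % of bases) in the 8 treated lists in 4 bands of distance from the nearest edge of the WT gap (x axis, kb), for gaps of 25 to 250 kb and gaps of 250 to 1000 kb; points are lists, and bars give the mean and SD over lists. Cover falls with distance in both, from 31.4% to 10.8% in the short gaps, and the short gaps lie higher at each distance.

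Filling fell steeply with the length of the segment. Over the 8 treated lists, 30.8% ± 7.61 of segments of 25 to 50 kb, 10.96% ± 3.96 of those of 50 to 100 kb and 3.16% ± 1.23 of those of 100 to 250 kb were filled (SD over lists). Part of this fall is built into the definition, since every base had to be covered and joining closed breaks under 25 kb. The share of bases in a LAD fell less steeply, from 35.3% to 21.7% and 14.7% in the same classes. The open share did not fall with length, at 39.9%, 42.2% and 39.5% in the 3 length classes. Among the shortest segments, 39.5% ± 4.97 were filled in BIX01294, 34.2% ± 1.34 in shAC, 28.1% ± 4.59 in DZNep and 21.6% ± 1.53 in TSA (SD, n = 2 lists each). Among the longest, the order differed, with 4.01% ± 1.75 in shAC, 3.86% ± 0.655 in BIX01294, 2.93% ± 1.09 in TSA and 1.85% in both DZNep lists, and the spreads of shAC, BIX01294 and TSA overlapped.

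**Figure D4:**
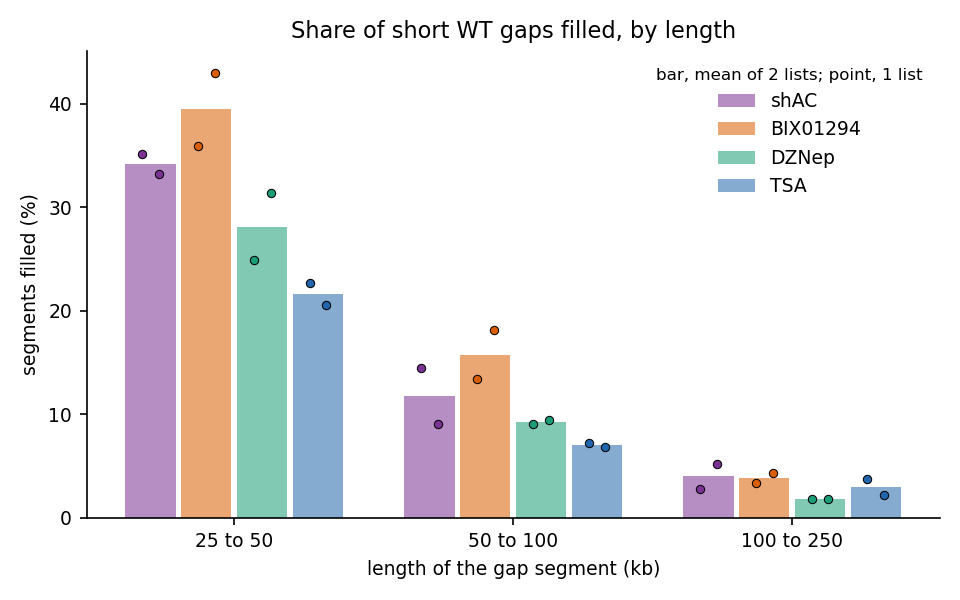
Share of short WT gaps that were filled (y axis, %) in 3 classes of segment length (x axis, kb), with a bar for the mean of the 2 lists of each treatment and a point for each list. Filling falls from a mean of 30.8% at 25 to 50 kb to 3.16% at 100 to 250 kb.

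In 6 of the 8 treated lists most filling was completed by the joining step, and both TSA lists were the exception. In the lists as deposited, 60.6% ± 0.311 of the segments filled in TSA lay in 1 unbroken called interval, against 38.7% ± 1.82 in shAC, 34.9% ± 6.88 in BIX01294 and 31.4% ± 6.18 in DZNep (SD, n = 2 lists each). The remainder held breaks under 25 kb that were closed by the joining. Both TSA lists lay above all 6 other treated lists in this share, a difference noticed after the values were seen and not tested. It was not particular to TSA. Among the WT lists, which chose the segments, the share was 68.6% in embryo 1.5, 30.3% in embryo 1.8 and 31.1% in embryo x17. As deposited, WT embryo 1.5 had 1174 gaps under 25 kb and the TSA lists 1883 and 1904, the fewest of all lists.

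Filling varied less with the length of the LADs on either side than with that of the gap. Of 524 segments whose shorter flanking LAD measured 100 to 250 kb, 14.8% ± 4.09 were filled (SD over 8 lists), against 17.01% ± 4.91 of 399 with a shorter flank of 250 to 1000 kb and 19.7% ± 8.72 of 47 with both flanks over 1000 kb, and the ranges over lists overlapped. Widening followed the flank more closely. A widened gap surrounded 43.6% of the open segments with the shortest flanks, 24.2% of those in the middle class and 15.8% of those with the longest flanks (means of 8 lists). The length filter works in this direction by construction. A flanking LAD that fell to 100 kb or less was dropped whole, and only short flanks came near that limit. How much of the fall this makes up was not tested. By chromosome, chromosome 11 had the lowest mean filled share, 11.8% ± 2.44, and chromosome 15 the highest, 22.3% ± 5.65 (SD over 8 lists).

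Individual segments were seldom filled throughout. Of the 970, 515 were filled in none of the 8 treated lists, 151 in a single list and 101 in 2 lists, and 6 were filled in all 8. The same counts over all 1974 WT gap segments are not given. These counts are thus not shown to be particular to short gaps. The 455 filled in at least 1 treated list (46.9%) had a median length of 39.1 kb, against 107.7 kb for those never filled. Only 16 segments were open in all 8 treated lists, and 14 of these were also open in the 3 WT lists. Segments filled in a WT list were compared in treated cells of the same and of the other embryo, with no test. By the rule, a segment that 1 WT list filled had to be a gap in the other 2 WT lists, so these sets were selected on a difference between embryos. Of the 106 segments that WT embryo x17 filled, 65.1% were filled in shAC of the same embryo and 45.3% in shAC of embryo 1.5; the corresponding shares were 59.4% and 34.9% in BIX01294, 48.1% and 19.8% in DZNep, and 35.8% and 18.9% in TSA, where embryo 1.8 is the other embryo. All 4 treatments thus had the higher share in embryo x17, where 7.41% to 18.5% of the other segments were filled. Of the 86 segments that WT embryo 1.5 filled, 43.0% were filled in shAC of that embryo and 24.4% in shAC of embryo x17. For the 89 segments that WT embryo 1.8 filled, the same-embryo share was higher for DZNep (49.4% against 42.7%) and TSA (29.2% against 18.0%) and lower for BIX01294 (49.4% against 57.3%). Across all segments, the lists of embryo x17 did not differ from the others of the same treatment beyond their spread: the filled share was 1.01 points higher in the mean, with differences of 4.33 in BIX01294, 2.58 in DZNep and -1.44 in both shAC and TSA (two-sided exact sign-flip permutation, p = 0.625, where 0.125 is the smallest possible).

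The segments filled in all 8 treated lists were short. The longest, of 56.5 kb, lay at chr10:62993995-63050445 and was flanked by a LAD of 174 kb on its shorter side. The next were 53.1 kb at chr15:69153162-69206268 and 44.7 kb at chr19:55134552-55179243. All 3 were also filled in WT embryo x17 and open in WT embryos 1.5 and 1.8, so the treated lists matched 1 of the WT lists there. Before joining, the intervals of the treated lists covered 59.3% of the segment on chromosome 10, 89.1% of that on chromosome 15 and 81.0% of that on chromosome 19 (means of 8 lists). The longest of the 14 segments open in all 11 lists were 180 kb at chr19:44972416-45152797, 173 kb at chr8:59961752-60134649 and 171 kb at chr6:71413983-71585402. As deposited, short intervals covered 0.0433%, 12.6% and 6.62% of these in the mean, so only the segment on chromosome 19 was nearly free of calls before the length filter.

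Few segments were filled in whole under 1 treatment and in at most 1 list of the others, and most of those named here were partly covered elsewhere. The classes below were counted among the short gaps only, with no count over WT gaps of other lengths beside them. In shAC, 21 segments were filled in both lists and in at most 1 of the other 6. The longest, of 120 kb at chr6:56211205-56330722, was covered whole in both shAC lists, over 80.9 kb and 60.0 kb in the BIX01294 lists, over 18.7 kb and 0.535 kb in DZNep and over 1 kb and 8.92 kb in TSA. It was already narrowed in WT embryo 1.8, over 84.0 kb. In the opposite direction, 1 segment was open in both shAC lists and filled in at least 5 of the other 6, a segment of 68.0 kb at chr13:74011144-74079132, and it was open in the WT lists of the same embryos, 1.5 and x17. In WT embryo 1.8 it was filled.

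In BIX01294, 31 segments were filled in both lists and in at most 1 other, 29.5% of those it filled in both, against 28.9% in TSA, 21% in shAC and 9.43% in DZNep, and none was open in both lists and filled in at least 5 others. The longest of the 31, of 150 kb at chr12:58198442-58348061, was covered over 91.2 kb in shAC embryo 1.5 and none of it in shAC embryo x17, over 100.2 kb and 44.4 kb in DZNep, and over 0.986 kb and 1.88 kb in TSA. WT embryo x17 covered 85.6 kb of it. It was thus largely covered in several other lists.

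In DZNep, 5 segments were filled in both lists and in at most 1 other; the longest, of 69.3 kb at chr3:127474239-127543571, was also filled in BIX01294 embryo 1.8 and in WT embryo 1.8 and was open in both TSA lists. Another 3 segments were open in both DZNep lists and filled in at least 5 of the other 6. The longest, of 39.1 kb at chr7:37678353-37717455, was open in all 3 WT lists and filled in both shAC lists, both BIX01294 lists and TSA embryo x17.

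In TSA, 13 segments were filled in both lists and in at most 1 other, and 16 were open in both and filled in at least 5 of the other 6. The longest of the 13, of 173 kb at chr11:56812084-56984647, was open in all 3 WT lists and filled in both TSA lists and in shAC embryo x17, with 147.6 kb covered in DZNep embryo x17. The longest of the 16, of 69.2 kb at chr15:90444607-90513852, was filled in both shAC and both BIX01294 lists and in DZNep embryo 1.8, and it was filled in WT embryo 1.8 and open in the WT lists of embryos 1.5 and x17. No segment was filled in the 4 treated lists of embryo x17 and open in the 4 others, or the reverse.

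**Figure D5:**
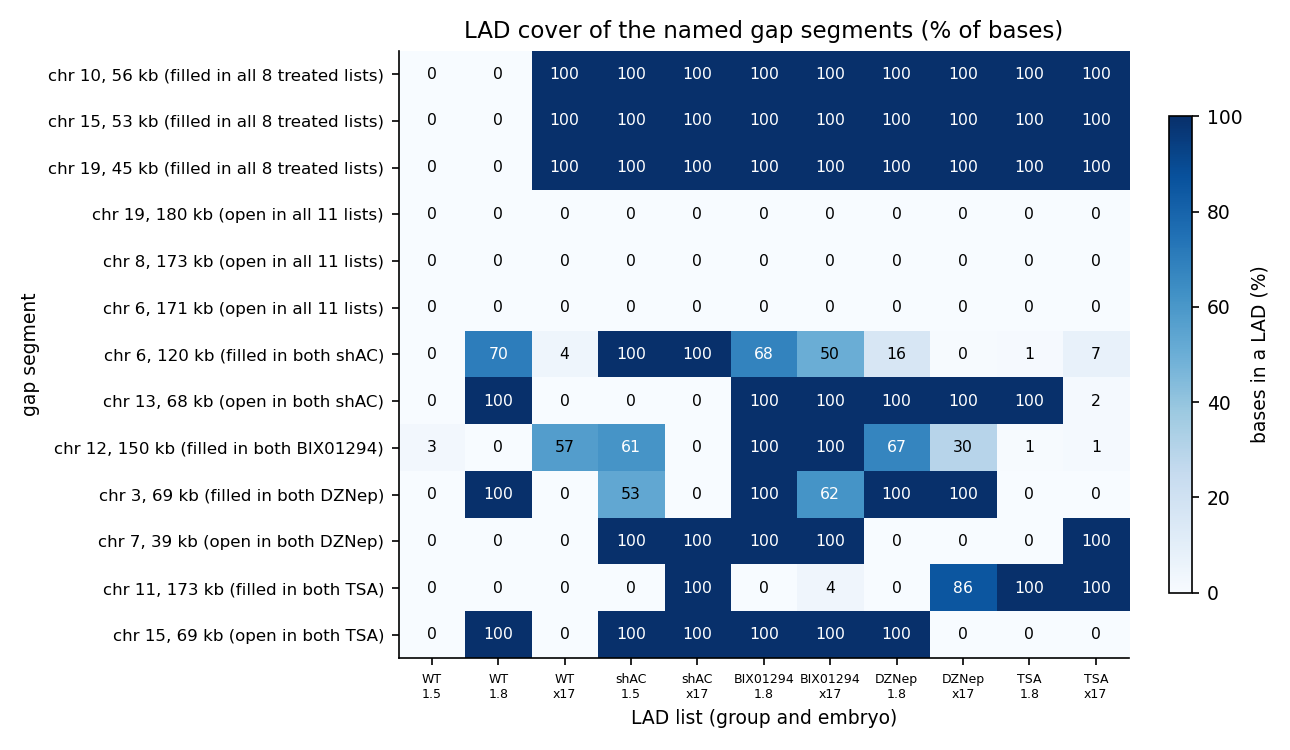
LAD cover (colour and number, % of bases) of the 13 named gap segments (y axis, chromosome, length and the class each was the longest of) in the 11 LAD lists (x axis, group and embryo). The 3 segments filled in all 8 treated lists are also filled in WT embryo x17, and the segment on chromosome 11 filled in both TSA lists is open in all 3 WT lists.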

How the data were processed

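DamID-seq was performed in 11 pairs of Dam-lamin B1 and Dam-only libraries. There is 1 deposited list per pair, so replicates were not pooled; the paper's methods name LADetector (circular binary segmentation) for calling LADs, and the aligner is not given in the sources used here. The deposited lists give interval starts and ends in mm9 and no score, count or signal, so no depth can be given and only the number of lists sets the precision. The paper's methods join LADs under 25 kb apart and keep those over 100 kb; the paper cites this series among other datasets, so whether its methods, LADetector included, made these lists is not known. Neither step was present in the deposited lists, and both were applied here. Starts were converted to count from 1.

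Groups, embryos and replicate numbers came from the sample labels; embryos 1.5 and 1.8 carry number 1 and embryo x17 number 2. Libraries with the same embryo name were taken as 1 animal, the source of the pairing; in the replicate block, number 1 joins embryos 1.5 and 1.8. The members and the rules were chosen with earlier results of these data known. Segments are named by rule: the 3 longest filled in all 8 treated lists, the 3 longest open in all 11, and for each treatment the longest filled in both lists and at most 1 of the other 6, or open in both and filled in at least 5. Exact permutation tests over lists were used; they treat lists as exchangeable, although lists share embryos, so the p-values may be too small. Distance bands ran from 0 to 12.5, 12.5 to 25, 25 to 50 and 50 to 125 kb from the nearest edge. Interval arithmetic was tested on simulated data. Python 3.11.15, numpy 2.4.6, scipy 1.17.1 and matplotlib 3.10.9 were used. Alternatives were joining under 50 kb, LADs over 200 kb, lists as deposited, gaps in all 3 WT lists, gaps up to 500 kb, segments of 50 kb or longer, filled at 90% and open at 10%, the replicate block, and each list left out.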

Additional observations from a re-analysis of the deposited data

Results flagged for a closer look

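The filled share of the short WT gaps in BIX01294 exceeded that in the other 3 treatments by 6.51 points, with both BIX01294 lists above all 6 others. It was singled out because the difference between treatments passed the exact permutation test before adjustment (p = 0.0357). After adjustment it did not pass (0.143, Benjamini-Hochberg over 4 treatments). Unadjusted, it also did not pass under most alternatives. With joining under 50 kb, segments of 50 kb or longer, or filled at 90%, the exact permutation p was 0.0714. This p was 0.179 with LADs over 200 kb and with the lists as deposited, and 0.143 without WT embryo x17. The contrast did not pass without any single DZNep or TSA list. It passed with gaps in all 3 WT lists, gaps up to 500 kb, or without either other WT list or either shAC list.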

How the results depend on the processing

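The lists hold no score or depth, so a weak interval cannot be told from a strong one, and with 2 lists per treatment the contrast of a treatment with the others can reach 0.05 only when no other choice of 2 lists gives as large a difference. Of 402 values recomputed under alternatives for 41 results, 246 kept their direction and side of the threshold or moved by less than the SD, 91 moved by more, 46 no longer passed, 4 newly passed and 15 changed sign. The alternatives for the held-out comparison were chosen after seeing the data. The excess of TSA over the held-out WT list of the same embryo in open segments (20.6 points in the main analysis) kept its sign under every alternative tried, as did the deficit of BIX01294; where settings change other values, the cause was not tested.

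With LADs over 200 kb there were 524 segments, 19.2% were filled in shAC, BIX01294 exceeded the other treatments by 6.11 points (p = 0.179), the correlation with total length was 0.65, the cover difference from 25 to 50 kb was 0.467 points, and the open share minus that of held-out WT was 6.64 points in DZNep and 21.4 in TSA. With gaps in all 3 WT lists, 411 segments remained by construction, and the filled share was 7.66% in shAC, 10.6% in BIX01294, 5.84% in DZNep and 5.23% in TSA. The spread of treatments was then 2.40 points, embryo x17 minus the other embryo -2.49, the correlation 0.68, and the cover differences 0.910 points (25 to 50 kb) and 1.03 points (beyond 50 kb). With segments of 50 kb or longer there were 600 segments, filled to 7.58% in shAC, 9.33% in BIX01294, 5.25% in DZNep and 4.83% in TSA. BIX01294 exceeded the others by 3.44 points, the spread was 2.10 points and the correlation 0.70. Filled minus held-out WT was then -0.385 points in BIX01294, -2.28 in DZNep and -3.79 in TSA, and open minus held-out WT 4.75 in DZNep.

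With the lists as deposited, neither joined nor filtered on length, the filled share was 6.86% in shAC, 7.16% in BIX01294, 4.33% in DZNep and 6.804% in TSA. The contrasts with the other treatments were 1.17 points for BIX01294, -2.61 for DZNep (exact permutation p = 0.0357, unadjusted) and 0.687 for TSA, a change of sign; the spread was 1.32 points, embryo x17 minus the other embryo -0.464, the correlation -0.15, also of the opposite sign, and the cover difference from 25 to 50 kb 1.06 points. Filled minus held-out WT was -1.30 points in shAC, -1.14 in DZNep and 0.521 in TSA, and open minus held-out WT -0.830 in shAC, 1.43 in DZNep and 19.8 in TSA. With gaps up to 500 kb the filled share was 13.48% in shAC, 16.3% in BIX01294, 11.1% in DZNep and 8.68% in TSA, filled minus held-out WT 0.362 points in BIX01294 and -3.38 in DZNep, and open minus held-out WT 5.95 in DZNep and 19.4 in TSA. With joining under 50 kb the filled share was 25.1% in BIX01294, 18.1% in DZNep and 12.4% in TSA. The contrasts were -1.46 points for shAC and 9.21 for BIX01294, the spread 5.24 and the cover difference beyond 50 kb 0.145 points. Filled minus held-out WT was -2.32 points in shAC, -0.634 in BIX01294, -6.24 in DZNep and -11.1 in TSA, and open minus held-out WT 3.14 in DZNep and 23.4 in TSA. With filled at 90% and open at 10%, the BIX01294 contrast was 6.44 points, and open minus held-out WT 7.79 in DZNep and 14.7 in TSA.

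With sign flips over the treatment means, added after seeing the data, the cover differences of 6.03, 3.98, 1.85 and 2.66 points (nearest to farthest band) could not pass, the smallest possible p being 0.125. In the replicate block, which groups lists by replicate number, the BIX01294 contrast of 6.51 points had an exact permutation p of 0.0625, the smallest that fit can give; the block changed no other call. Leaving out each list in turn gave 538 to 661 segments, filled shares of 11.6% to 18.5% in shAC, 14.5% to 22.99% in BIX01294, 8.62% to 15.3% in DZNep and 7.64% to 11.96% in TSA. The contrasts ranged from 4.35 to 8.68 points for BIX01294 and from -7.24 to -3.96 for TSA, the spread from 3.12 to 5.09, and the correlation from 0.54 to 0.87. The cover differences ranged from 1.39 to 2.15 points (25 to 50 kb) and 1.38 to 3.73 points (beyond 50 kb). Embryo x17 minus the other embryo ranged from -2.65 to 2.38 points, with -1.40 without WT embryo 1.5 and -0.103 without either BIX01294 list. For shAC minus held-out WT, embryo 1.5 alone gave 0.454 points filled and -3.03 open, and embryo x17 alone -0.968 and 12.7.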
